A study of Mus musculus with 12 samples.

Results

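The genes described here are the 7 mouse oligoadenylate synthetase genes Oas1a, Oas1b, Oas1g, Oas2, Oas3, Oasl1 and Oasl2. They were picked by name from a table of 46095 genes, and all 7 passed the low-count filter that left 13743 genes for testing. RNA was sequenced from 12 pancreas samples taken at postnatal day 56, 6 of C57BL/6J wild type mice (WT 1 to WT 6) and 6 of Axl-/-Mertk-/- mice (AMKO 1 to AMKO 6), which lack a pair of receptor tyrosine kinases that recognise dying cells and restrain innate immune signalling. Mice of both genotypes had been given 10 hourly intraperitoneal injections of caerulein, a cholecystokinin analogue that causes acute pancreatitis, at 100 µg/kg, and tissue was taken 12 h from the start of dosing. The series is titled for necrosis and CXCL2-driven neutrophil infiltration, so the comparison asks how loss of both receptors changes inflamed pancreas. The sources used here do not give the strain of the AMKO mice, so a strain difference cannot be told apart from loss of the receptors. No untreated pancreas was analysed here.

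Oligoadenylate synthetases bind double-stranded RNA and then join ATP into short 2′-5′-linked oligoadenylates, called 2-5A. The 2-5A is a second messenger that leads to the breakdown of viral and cellular RNA. The genes are classic targets of type I interferon, through a transcription factor complex that holds STAT2 and IRF9. In mice the Oas1 genes form a large tandem family beside Oas2 and Oas3, and Oasl1 and Oasl2 lie together elsewhere on the same chromosome.

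Library totals ran from 10668637 to 15184371 counts, and 18548 to 20596 genes had a count. Levels are given as CPM, counts scaled to a common library size. Axl had 58.9 ± 12.3 CPM (SD, n = 6) in WT and 9.09 ± 2.20 CPM in AMKO, and it was lower in AMKO in edgeR's quasi-likelihood test (log2 fold change -2.69, SE 0.18, Benjamini-Hochberg adjusted p = 1.95e-06). Mertk had 6.90 ± 2.96 CPM in WT and 6.75 ± 2.39 CPM in AMKO (adjusted p = 0.968, edgeR). The sources used here do not give which part of Mertk is deleted, so its count does not check the labels. Markers of acinar cells, the enzyme-secreting cells of the pancreas, were abundant in both genotypes, although Prss2 was at 0 in every library. Libraries within each genotype differed in leukocyte transcripts. Summed neutrophil markers ran from 60.9 to 587 CPM in WT and from 48.5 to 329 CPM in AMKO, and WT 3, WT 6, AMKO 3 and AMKO 6 were the 4 lowest. AMKO 1 and AMKO 5 were highest in summed macrophage and monocyte markers, with 1462 and 1673 CPM against 379 to 971 CPM in WT.

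All 7 OAS genes had a lower mean in AMKO pancreas, and the fitted log2 fold changes (AMKO minus WT) lay between -1.26 and -0.60, with a median of -0.90. Only Oas1b passed the test over all genes. The median over all 13743 tested genes was -0.00, and 50.3% of them were below 0. Of the tested genes 794 were called at an adjusted p under 0.05 (5.78% in either direction, and 3.37% lower in AMKO), beside 1 of 7 OAS genes. At an unadjusted p under 0.05 there were 4 OAS genes, namely Oas1b, Oas2, Oasl1 and Oasl2, beside 21.9% of all tested genes. In bulk tissue, fewer cells that express a gene and less RNA per cell cannot be told apart. The labels do not name separate mice for each library, so p-values measure the spread between these libraries.

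**Figure D1:**
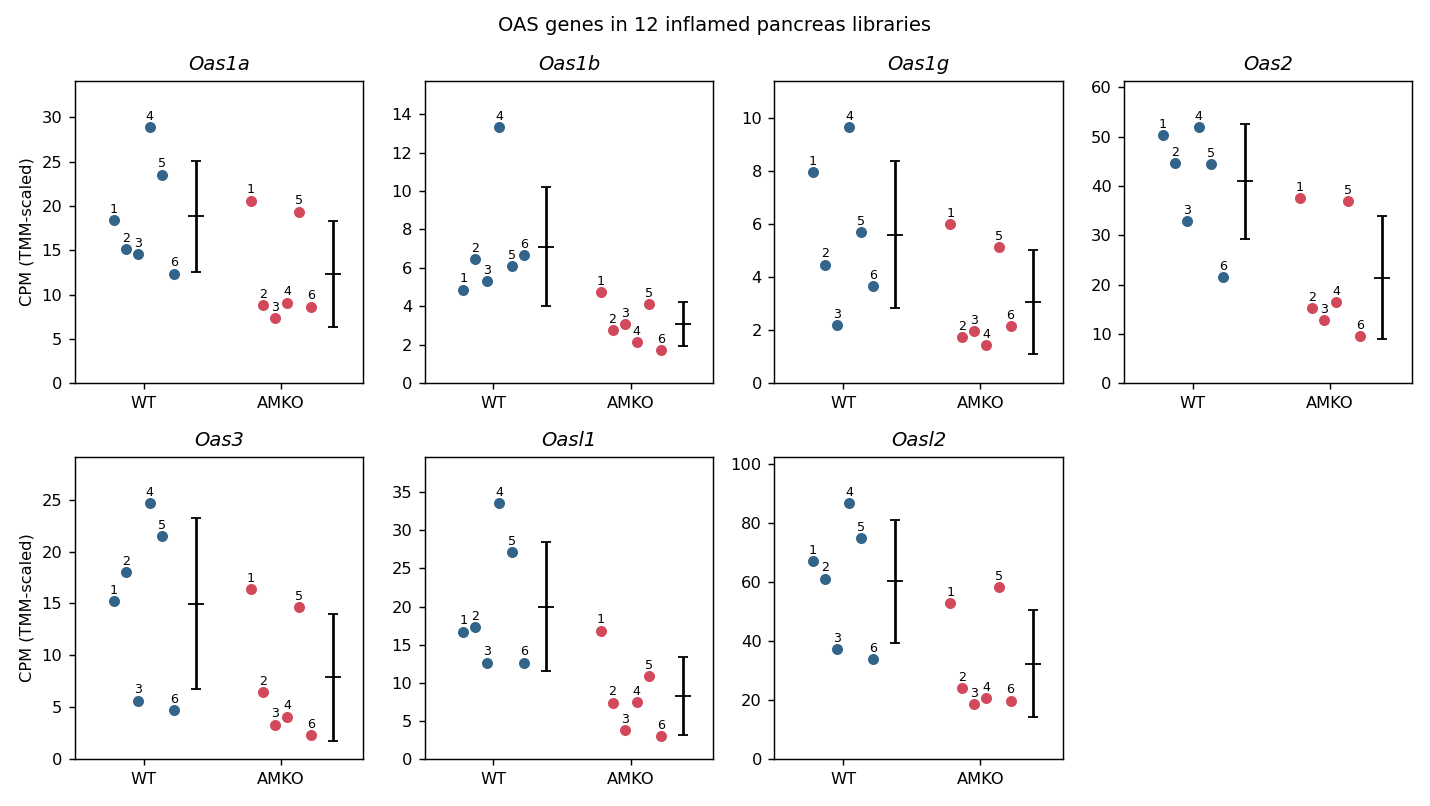
Level of each OAS gene in each library, in TMM-scaled CPM on a linear axis that starts at 0. Points are libraries numbered as in the text, and bars are the mean and SD of 6 libraries per genotype. AMKO 1 and AMKO 5 stand above the other 4 AMKO libraries in each OAS panel, and only for Oas1b does no AMKO library reach the WT range.

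Oas1b is the mouse flavivirus resistance gene, whose product is cut short by a stop codon in C57BL/6J and most other laboratory strains. In WT its level was lowest in WT 1 (4.87 CPM), had a median of 6.27 CPM and was highest in WT 4 (13.3 CPM). In AMKO it was lowest in AMKO 6 (1.73 CPM), had a median of 2.92 CPM and was highest in AMKO 1 (4.75 CPM). Every AMKO library thus lay below every WT library, an order that 2.3% of tested genes showed, and the nearest pair, AMKO 1 and WT 1, were almost level. The means were 7.11 ± 3.12 CPM in WT and 3.09 ± 1.16 CPM in AMKO (SD, n = 6 each), so Oas1b was 2.27-fold higher in WT (log2 fold change -1.18, SE 0.29, edgeR adjusted p = 0.0283). These levels rest on 65 to 178 counts per WT library and 16 to 77 counts per AMKO library. WT 4 stood far above the other WT libraries, and without it the log2 fold change was -0.91 and the adjusted p 0.0544. The call was also lost without any of AMKO 2, AMKO 3, AMKO 4 and AMKO 6, with adjusted p-values up to 0.0676.

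Oas1a and Oas1g encode active synthetases, and the transcripts of the 2 genes are near copies, 97.6% identical over 1861 aligned bases. The sources used here do not give how reads with several matches were counted, so the split of counts between them is uncertain. Oas1a ran from 12.4 CPM (WT 6) over a median of 16.7 to 28.9 CPM (WT 4) in WT. In AMKO it ran from 7.31 CPM (AMKO 3) over a median of 8.95 to 20.6 CPM (AMKO 1). AMKO 1 and AMKO 5 lay within the WT range and the other 4 AMKO libraries below it. Its log2 fold change was -0.60, the smallest in size among the OAS genes (95% interval -1.22 to 0.02, adjusted p = 0.241, edgeR).

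Oas1g was among the least abundant OAS genes. It ran from 2.20 CPM (WT 3) over a median of 5.08 to 9.66 CPM (WT 4) in WT, and from 1.44 CPM (AMKO 4) over a median of 2.06 to 5.98 CPM (AMKO 1) in AMKO. Again AMKO 1 and AMKO 5 were inside the WT range. The log2 fold change was -0.85 (95% interval -1.73 to 0.03, adjusted p = 0.244, edgeR).

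Oas2 and Oas3 encode larger synthetases made of linked OAS units. Oas2 had its lowest WT level in WT 6 (21.5 CPM), a WT median of 44.5 CPM and its highest level in WT 4 (51.9 CPM). In AMKO it ran from 9.52 CPM (AMKO 6) over a median of 15.8 to 37.5 CPM (AMKO 1). All 6 AMKO libraries lay below the WT median and 4 of them below every WT library. The log2 fold change was -0.93 (95% interval -1.62 to -0.23, adjusted p = 0.111, edgeR).

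Oas3 spread most widely within a genotype. It ran from 4.72 CPM (WT 6) over a median of 16.6 to 24.7 CPM (WT 4) in WT, and from 2.27 CPM (AMKO 6) over a median of 5.26 to 16.4 CPM (AMKO 1) in AMKO. The highest library was 5.23 times the lowest in WT and 7.22 times the lowest in AMKO, against 2.34 and 2.82 times for Oas1a. With that spread the log2 fold change of -0.90 had a 95% interval from -1.99 to 0.18 (adjusted p = 0.319, edgeR).

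Oasl1 and Oasl2 encode OAS-like proteins that carry ubiquitin-like domains. Mouse OASL1 has no synthetase activity and holds back translation of Irf7 mRNA, whereas mouse OASL2 makes 2-5A. Oasl1 ran from 12.6 CPM (WT 6) over a median of 17.0 to 33.6 CPM (WT 4) in WT. In AMKO it ran from 3.03 CPM (AMKO 6) over a median of 7.43 to 16.8 CPM (AMKO 1). Here AMKO 1 alone entered the WT range, just below the WT median. Oasl1 had the largest fitted difference of the 7 genes but missed the threshold (2.39-fold higher in WT, n = 6 each, log2 fold change -1.26, SE 0.37, edgeR adjusted p = 0.0619). With single libraries left out, its log2 fold change ran from -1.59 to -1.05 and its adjusted p from 0.0148 to 0.136, and it passed only without AMKO 1. Its exons share 38 of 2608 bases with the antisense gene Gm13822, and the sources used here do not give whether counting used strand.

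Oasl2 had the most counts of the family. It ran from 33.8 CPM (WT 6) over a median of 64.2 to 86.9 CPM (WT 4) in WT, and from 18.5 CPM (AMKO 3) over a median of 22.4 to 58.3 CPM (AMKO 5) in AMKO. AMKO 1 and AMKO 5 were within the WT range and the other 4 below it. The log2 fold change was -0.89 (95% interval -1.59 to -0.19, adjusted p = 0.125, edgeR).

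**Figure D2:**
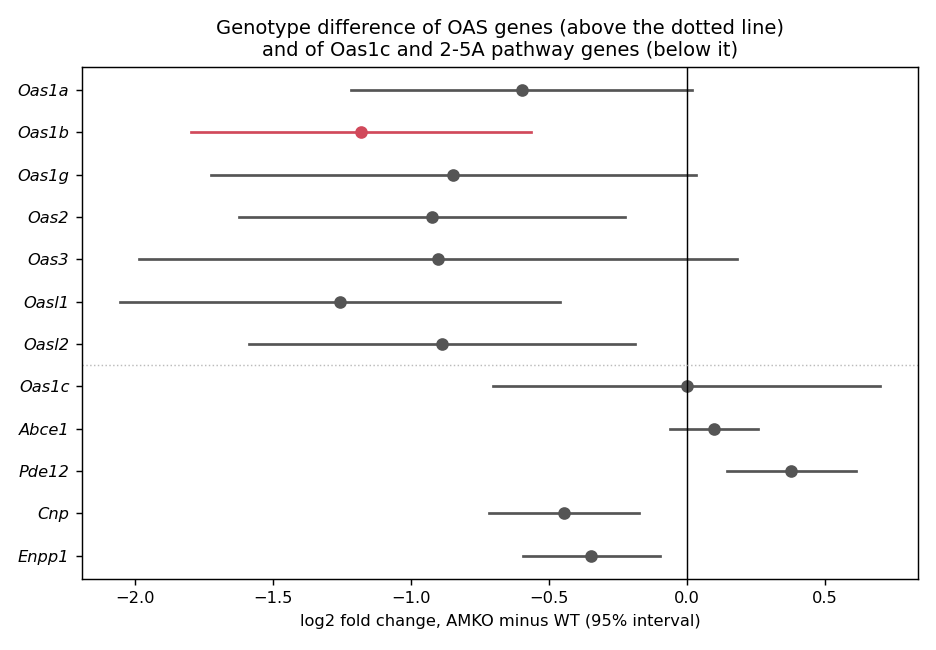
Log2 fold change (AMKO minus WT, edgeR) with its 95% interval for each OAS gene, above the dotted line, and for Oas1c and genes of 2-5A metabolism below it. The called gene, Oas1b, is in red. Estimates of the 7 OAS genes lie between -1.26 and -0.60, and the intervals of Oas1a, Oas1g and Oas3 reach past 0. Among the genes below the line those of Oas1c and Abce1 include 0.

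Levels were compared between genes per kilobase of GENCODE exon length. In WT the mean level was highest for Oas1a (9.98 CPM per kb), followed by Oasl2 (9.45), Oas2 (9.20) and Oasl1 (7.67), and then by Oas1b (3.57), Oas1g (2.40) and Oas3 (2.12). The first 4 changed places between libraries: Oas1a exceeded Oasl2 in 4 of 6 WT libraries, Oasl2 exceeded Oas2 in 3 of 6, and Oas2 exceeded Oasl1 in 3 of 6. The only step held in all 6 WT libraries was that from Oasl1 down to Oas1b (mean log2 difference 1.09, SD 0.43). In AMKO the order of the means was unchanged, from 6.53 CPM per kb for Oas1a to 1.11 for Oas3.

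The OAS genes moved together from library to library. With each gene centred on its own mean over the 12 libraries, the mean of the 7 in log2 CPM was highest in WT 4 (1.28) and lowest in AMKO 6 (-1.28). WT libraries spanned -0.14 (WT 6) to 1.28, and WT 3 and WT 6, both poor in neutrophil markers, were the lowest of them. AMKO 2, AMKO 3, AMKO 4 and AMKO 6 lay between -1.28 and -0.71, below every WT library, whereas AMKO 1 (0.52) and AMKO 5 (0.35) lay within the WT range.

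The libraries high in OAS genes among AMKO were also high in fibroblast transcripts and in those of some leukocyte types. Summed B and plasma cell markers were 208 CPM in AMKO 1 and 81.4 CPM in AMKO 5, against 2.12 to 4.61 CPM in the other 4 AMKO libraries and 0.897 to 45.9 CPM in WT, with Ighm and Igkc at 0 throughout. Summed T and NK cell markers were 15.5 and 8.43 CPM in AMKO 1 and AMKO 5 and 0.541 to 4.38 CPM elsewhere. These sums rest on few counts, since none of the 10 markers passed the low-count filter and Trac was at 0 throughout. Summed conventional dendritic cell markers were 50.7 CPM in AMKO 1 but 33.1 CPM in AMKO 5, against 38.1 to 40.6 CPM in the other 4 AMKO libraries. Sums of the plasmacytoid dendritic cell list were lower in AMKO 1 and AMKO 5 (5899 and 7646 CPM) than in those 4 (8556 to 11641 CPM). That list includes Bst2, which is also among the antiviral effectors below. Its mean sum was 0.762% of CPM in WT, against 0.00336% for the conventional list, so it does not measure these cells alone. Summed fibroblast markers were 989 and 1107 CPM in AMKO 1 and AMKO 5, against 532 to 585 CPM in the other 4 AMKO libraries and 685 to 1206 CPM in WT. On the fibroblast list 1 of 8 genes was called lower in AMKO in edgeR, against 3.37% of all tested genes. In DESeq2 and in limma voom 3 were called lower, and these tools called 1302 and 1664 genes in all. The median log2 fold change of the list was -0.48 in edgeR. On the duct cell list 3 of 8 genes were called lower in edgeR, against the same 3.37%. Sums of that list were 2144 to 2804 CPM in WT and 1642 to 2369 CPM in AMKO. Across the macrophage and monocyte list 1 of 12 genes was called, higher in AMKO, against 5.78% of all tested genes in either direction. The median log2 fold change of that list was 0.40 in edgeR and 0.07 in limma voom. Of the 5 tested neutrophil markers none was called in edgeR (0 at an unadjusted p under 0.05, 0 in DESeq2 and in limma voom, and 2 lower with the replicate block), with a median of -0.48. The part of these cells in the OAS difference was not tested. With a term for the 4 libraries poorest in neutrophil markers, a setting chosen after seeing the data, 4 OAS genes were called (Oas1b, Oas2, Oasl1 and Oasl2). Of the 13743 tested genes 1066 were called with that term, against 794 without it. When those 4 libraries were left out, 0 OAS genes were called in edgeR, and 98 genes were called in all. In that fit 5 OAS genes had an unadjusted p under 0.05, and the share of all tested genes at that cut is not given here. The median log2 fold change of all 7 OAS genes in that fit was -0.92.

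**Figure D3:**
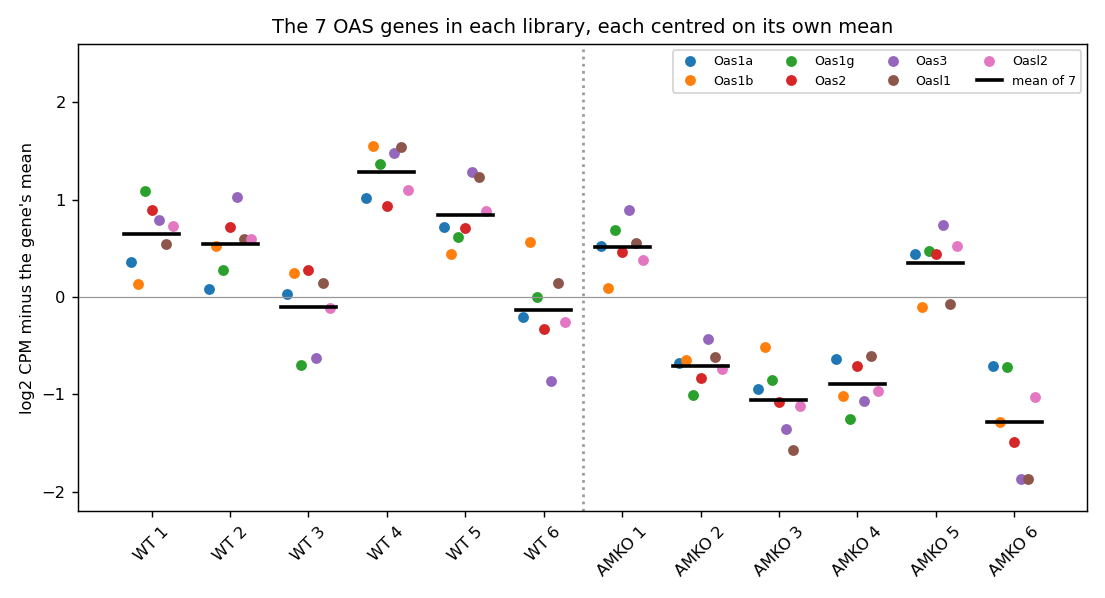
Log2 CPM of each OAS gene minus its own mean over the 12 libraries, by library, with WT left and AMKO right of the dotted line. Points are genes and black bars the mean of the 7. WT 4 is highest at 1.28, AMKO 6 lowest at -1.28, and AMKO 1 and AMKO 5 lie among the WT libraries.

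Pairs of OAS genes differed in how closely they kept together. The root mean square distance between centred profiles was smallest for Oas2 and Oasl2 (0.22 in log2 CPM) and largest for Oas1b and Oas3 (0.75). Whether the genotype difference was larger for one gene than for another was tested for all 21 pairs by a two-sided exact permutation test over the 924 assignments of libraries to groups. Only Oas1a and Oasl1 passed. The log2 ratio of Oas1a to Oasl1 was -0.05 ± 0.19 in WT and 0.67 ± 0.49 in AMKO (SD, n = 6 each). The difference was 0.73, with an exact p of 0.0021645, the smallest this design can give, and an adjusted p of 0.0455. The ratio lay between -0.22 and 0.21 in WT and between 0.25 and 1.47 in AMKO, so the genotypes did not overlap, though AMKO 2 was close to the highest WT library. Without any 1 WT library the difference was 0.69 to 0.78, and the adjusted p lay between 0.0909 and 0.273. Without any 1 AMKO library the difference was 0.57 to 0.81, and the exact p stayed at the smallest value those libraries allow. The difference next in size of p was that of Oas1a and Oasl2 (0.31, exact p = 0.0238, adjusted p = 0.25), so Oas1b, the only called gene, was not shown to differ in its change from any of the other 6.

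**Figure D4:**
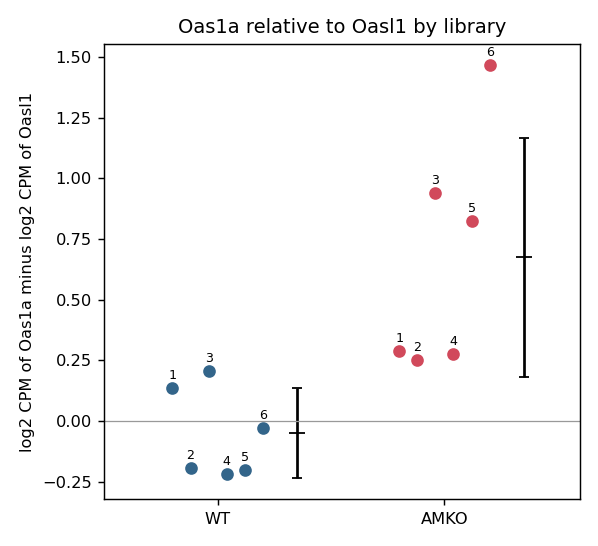
Log2 CPM of Oas1a minus log2 CPM of Oasl1 in each library, with libraries numbered and the mean and SD of 6 libraries per genotype as bars. WT libraries lie between -0.22 and 0.21 and AMKO libraries between 0.25 and 1.47.

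The other mouse Oas1 paralogues gave little signal. Oas1c had 1.73 ± 0.48 CPM in WT and 1.71 ± 0.84 CPM in AMKO (SD, n = 6 each, log2 fold change -0.00, SE 0.33, edgeR adjusted p = 0.999), and its estimate was 0.01 in DESeq2 and -0.37 in limma voom. Oas1e had 7 counts in all, 6 of them in WT 2. Oas1d, Oas1f and Oas1h had 0 counts in all 12 libraries, which at 3 counts allows up to 0.324 CPM in a library, counting error only. The log2 ratio of Oas1b to its neighbour Oas1c was 1.91 ± 0.61 in WT and 0.85 ± 0.34 in AMKO. That pair was chosen after its values were seen, so the ratio is given with no test. Exons of Oas1c share 227 bases with Gm43069 on the opposite strand, so its count is uncertain.

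All 7 genes lie on chromosome 5 of GRCm38 (GENCODE). Oasl2 (chr5:114896936-114912234, plus strand) and Oasl1 (chr5:114923240-114937915, plus strand) form 1 block. Oas2 (chr5:120730333-120749853, minus strand) and Oas3 (chr5:120753098-120777661, minus strand) begin the other. They are followed there by Oas1b (chr5:120812635-120824163, plus strand), Oas1g (chr5:120876142-120887613, minus strand) and Oas1a (chr5:120896256-120907521, minus strand). GENCODE types Oas1b as a polymorphic pseudogene. Of the 15 tested genes that are not OAS genes within 250 kb of the Oasl block 1 was called, near the 5.78% over all tested genes. It was Gltp, which was higher in AMKO (log2 fold change 0.29, adjusted p = 0.0272, edgeR). None of 8 around the Oas1 to Oas3 cluster was called, and the lowest adjusted p there was 0.0767, for Dtx1.

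RefSeq (GRCm38.p6) promoter windows, from 250 bases before to 50 after the start, were found for 5 of the 7 genes, Oas1a, Oas1g, Oas3, Oasl1 and Oasl2, and for Oas1c. They are shown because the genes moved together and because interferon acts on such promoters through the interferon-stimulated response element (ISRE). The core searched for was GAAANNGAA, on both strands, and its matches are in capitals. Each window is read 5′ to 3′ on its gene's strand. The windows are chr5:120907476-120907775 (minus) for Oas1a, chr5:120887564-120887863 (minus) for Oas1g, chr5:120777610-120777909 (minus) for Oas3, chr5:114922990-114923289 (plus) for Oasl1, chr5:114896684-114896983 (plus) for Oasl2 and chr5:120812465-120812764 (minus) for Oas1c.
Oas1a: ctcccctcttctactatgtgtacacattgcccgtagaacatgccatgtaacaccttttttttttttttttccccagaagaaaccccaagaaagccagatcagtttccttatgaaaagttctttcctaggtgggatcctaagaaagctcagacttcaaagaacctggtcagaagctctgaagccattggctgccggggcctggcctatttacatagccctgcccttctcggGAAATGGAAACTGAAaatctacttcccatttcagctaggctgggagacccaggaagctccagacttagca
Oas1g: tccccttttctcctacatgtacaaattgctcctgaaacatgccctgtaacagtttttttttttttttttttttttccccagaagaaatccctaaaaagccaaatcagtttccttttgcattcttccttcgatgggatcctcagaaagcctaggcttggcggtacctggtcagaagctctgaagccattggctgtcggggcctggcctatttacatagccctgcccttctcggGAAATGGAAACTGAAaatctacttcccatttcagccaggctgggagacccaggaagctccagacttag
Oas3: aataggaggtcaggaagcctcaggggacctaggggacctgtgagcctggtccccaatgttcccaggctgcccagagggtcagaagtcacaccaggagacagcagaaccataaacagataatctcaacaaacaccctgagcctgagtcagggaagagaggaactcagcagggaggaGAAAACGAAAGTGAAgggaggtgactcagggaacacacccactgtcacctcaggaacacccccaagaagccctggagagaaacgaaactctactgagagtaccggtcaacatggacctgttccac
Oasl1: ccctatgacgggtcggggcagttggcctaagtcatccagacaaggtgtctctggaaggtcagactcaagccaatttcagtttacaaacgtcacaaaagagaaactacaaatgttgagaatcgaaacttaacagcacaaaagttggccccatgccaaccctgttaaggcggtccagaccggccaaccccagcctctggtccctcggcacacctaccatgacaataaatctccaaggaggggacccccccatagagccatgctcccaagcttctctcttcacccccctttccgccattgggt
Oasl2: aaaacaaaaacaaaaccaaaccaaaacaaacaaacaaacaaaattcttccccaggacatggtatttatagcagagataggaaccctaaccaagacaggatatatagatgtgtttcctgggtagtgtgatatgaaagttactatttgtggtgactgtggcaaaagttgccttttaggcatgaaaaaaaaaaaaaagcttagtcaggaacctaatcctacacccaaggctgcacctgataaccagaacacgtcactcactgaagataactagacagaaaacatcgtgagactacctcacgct
Oas1c: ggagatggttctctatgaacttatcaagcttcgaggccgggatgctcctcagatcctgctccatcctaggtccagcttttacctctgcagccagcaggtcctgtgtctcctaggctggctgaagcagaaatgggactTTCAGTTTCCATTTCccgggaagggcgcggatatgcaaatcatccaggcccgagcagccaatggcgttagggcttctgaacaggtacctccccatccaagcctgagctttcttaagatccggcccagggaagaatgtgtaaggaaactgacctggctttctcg

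An ISRE core was in 8.56% of 32851 mouse promoter windows of the same length. Oas1a, Oas1g and Oas3 each held a pair of overlapping matches, whereas Oasl1 and Oasl2 held none in these windows. In Oas1a the pair spans positions -20 to -6 from the start, in Oas1g -18 to -4 and in Oas3 -75 to -61. The 15 bases of the pair, GAAATGGAAACTGAA, are identical in Oas1a and Oas1g, and Oas3 has GAAAACGAAAGTGAA. Oas1c carries the Oas1a sequence on its opposite strand, at -113 to -99. The RefSeq start of Oas1b falls inside this window, 121 bases from that of Oas1c and on the other strand, so that the same pair lies 22 to 8 bases before the Oas1b start and reads forward for it. The gamma activation site core TTCNNNGAA was in 8.3% of all windows and, among these genes, in Oas1a alone, at -98 to -90. These are matches of letters, and binding was not measured.

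**Figure D5:**
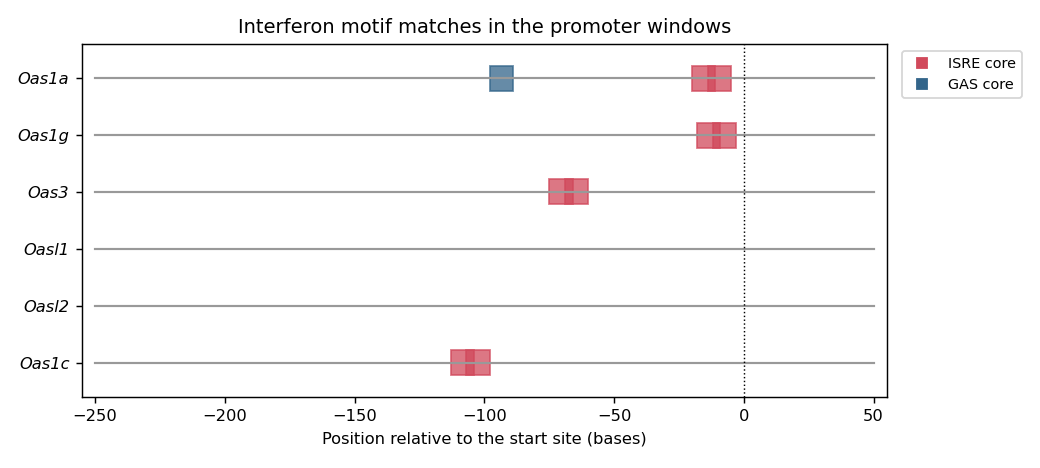
Matches of the ISRE core and of the gamma activation site (GAS) core in the promoter windows of 5 OAS genes and Oas1c, by distance from the start site in bases (dotted line). Overlapping ISRE matches are drawn as overlapping boxes. Oas1a, Oas1g, Oas3 and Oas1c hold a pair, and Oasl1 and Oasl2 hold none.

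Downstream of the OAS enzymes, 4 genes of 2-5A metabolism and response showed smaller fitted differences, and none of them was called in edgeR. Abce1, an ATP-binding protein that also recycles ribosomes, had 164 ± 15.7 CPM in WT and 176 ± 9.81 CPM in AMKO (SD, n = 6 each, adjusted p = 0.47, edgeR). Pde12, which degrades 2-5A, had 17.3 ± 2.95 and 22.5 ± 1.74 CPM (log2 fold change 0.38, adjusted p = 0.0582, edgeR). The phosphodiesterase genes Cnp and Enpp1 had log2 fold changes of -0.45 and -0.35 (adjusted p = 0.0548 and 0.0956, edgeR). Of the 4 genes 3 had an unadjusted p under 0.05 in edgeR, a cut that 21.9% of all tested genes passed. DESeq2 and limma voom each called 1 lower and 1 higher.

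Among other genes of RNA sensing, 6 of 10 were called lower in AMKO and none higher, against 3.37% called lower over all tested genes. The median log2 fold change was -0.76. Of the 10 estimates 9 were below 0, and that of Ticam1 was 0.32 (adjusted p = 0.117, edgeR). Eif2ak2, the kinase PKR that stops translation on double-stranded RNA, fell from 83.5 ± 16.8 to 40.6 ± 9.37 CPM (edgeR log2 fold change -1.04 with an SE of 0.16, adjusted p = 0.00217). It lay between 69.8 and 117 CPM in WT and between 27.4 and 51.8 CPM in AMKO. AMKO 1 and AMKO 5, with 51.1 and 51.8 CPM, were again the highest AMKO libraries but stayed under every WT library. Tlr3, the endosomal receptor for double-stranded RNA, fell from 28.8 ± 5.17 to 15.6 ± 2.70 CPM (edgeR log2 fold change -0.89 with an SE of 0.14, adjusted p = 0.00291). Ifih1, the cytosolic sensor MDA5, changed by -0.93 (adjusted p = 0.00915), Adar, an RNA editing enzyme, by -0.48 (0.00447), Trim25 by -0.45 (0.0141) and Ddx58, the sensor RIG-I, by -0.85 (0.0376). Of the 24 alternatives, Eif2ak2 and Tlr3 were called in all, Adar in 23, Trim25 in 22 and Ifih1 in 21. Ddx58 was called in 14, and its call was lost without any of WT 2, WT 4, WT 5, AMKO 2, AMKO 3, AMKO 4 and AMKO 6 (adjusted p up to 0.0911). Whether the OAS genes and these genes of RNA sensing differ in their change was not tested. The SEs of these 6 called genes ran from 0.08 to 0.22 on the log2 scale, against 0.29 to 0.51 for the OAS genes. On the cytosolic DNA sensing list 0 of 6 genes were called in edgeR (0 at an unadjusted p under 0.05, and 0 in DESeq2 and limma voom).

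Interferon genes themselves were almost without counts. Of the 19 listed, 18 had 0 counts in all 12 libraries and Ifng had 6 counts in all. A count of 0 allows up to 0.324 CPM in a library, counting error only. How reads with several matches were counted is not given, and Prss2, Ighm and Igkc were also at 0 in every library. Among interferon receptors and signalling genes 2 of 12 were called lower, against 3.37% of all tested genes. Both are parts of the complex that drives OAS genes. Stat2 fell by 1.11 on the log2 scale (SE 0.15, adjusted p = 0.00127, edgeR) and Irf9 by 0.90 (SE 0.15, adjusted p = 0.00415). None of 6 interferon regulatory factors was called in edgeR (2 at an unadjusted p under 0.05, 1 in DESeq2 and 1 in limma voom). Irf7, the factor whose translation OASL1 restrains, had 53.1 ± 20.1 CPM in WT and 23.0 ± 14.7 CPM in AMKO (log2 fold change -1.19, adjusted p = 0.0658). Of 6 feedback inhibitors 1 was called lower, against 3.37% of all tested genes. It was Usp18, which removes ISG15 and blocks the interferon receptor (log2 fold change -2.40, SE 0.41, adjusted p = 0.00446).

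Of the other antiviral effectors of the same interferon response, 9 of 24 tested genes were called lower and none higher. Over all tested genes 3.37% were called lower. All 24 estimates were below 0, with a median of -1.05. The called genes included Xaf1 (log2 fold change -1.88, adjusted p = 0.00251), Rsad2, which encodes viperin (-2.41, 0.00401), and Cmpk2 (-1.59, 0.00634), all by edgeR. Among interferon-gamma type targets 1 of 13 was called lower (7.69%, against 3.37% of all tested genes), and the median was -0.58. The called gene was the GTPase gene Irgm1 (-1.26, 0.0128). It was called in 22 of 24 alternatives but not with WT 1 to 3 alone (adjusted p = 0.146, edgeR). In limma voom, which called 1664 genes in all, 5 of the 13 were called lower. Over these lists, which were chosen with earlier results of these data known, 19 genes were called in all. Without the 4 libraries poorest in neutrophil markers 3 were called, and with WT 4 to 6 alone as controls 11.

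Genes closest to the mean OAS profile over the 12 libraries were found among 11217 tested genes, by the root mean square distance of centred log2 CPM. The 10 nearest genes included Phf11d (0.22), Samd9l (0.23), Dhx58 (0.24), Gbp7 (0.26), Zbp1 (0.26), Ube2l6 (0.26), Parp14 (0.29), B2m (0.29) and H2-T23 (0.29), against a median of 0.82 over all candidates. Of these 10 genes 5 were on the lists above, and only Parp14 was called (log2 fold change -1.26, SE 0.26, adjusted p = 0.0117, edgeR). Nearness here includes the genotype difference and the differences between libraries of a genotype, and the 12 libraries are shared by all genes.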

How the data were processed

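Total RNA of 12 pancreas samples was sequenced on libraries made by standard Illumina steps, per the labels' protocols. Per the submitters' processing notes, the tools include HISAT2 2.0.4 and the build was mm10. The sources used here do not give the counter, annotation, use of strand or treatment of reads with several matches. The authors deposited raw gene counts, 1 table of 46095 genes, of which 19888 had 0 counts in all libraries. Columns were matched to samples by title and grouped by genotype.

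The main test was the edgeR 4.0.16 quasi-likelihood F test (R 4.3.3) of AMKO against WT, with TMM scaling, filterByExpr and no term besides genotype. P-values were adjusted over 13743 genes by Benjamini-Hochberg, and genes called at an adjusted p under 0.05. CPM use TMM-scaled totals, and log2 CPM a prior count of 2. SEs were derived from the F statistic, and intervals are at 95%. Ratios between OAS genes used an exact permutation test, adjusted over 21 pairs. The fit and the permutation test were tested on simulated data. Exon lengths and positions come from GENCODE (GRCm38), promoters from RefSeq, and near copies from BLAST 2.17.0 (at least 95% identity over 300 bases). Alternatives used RLE, upper quartile and trimmed scaling, other filters, DESeq2 1.42.0, limma voom 3.58.1, a replicate block, WT subsets and single left-out libraries.

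The members and lists were chosen with earlier results of these data known. Named genes were all OAS genes, Axl, Mertk, 2-5A genes, up to 6 called genes of each other list or otherwise its 2 most counted, and the 10 genes nearest to the mean OAS profile. From these the text names the ones that carry each group, and a few others are not reported here. Irf7, Gltp and Dtx1 were named after their values were seen. Protein sequences were not used here. Every pair of libraries within a genotype differed beyond sampling noise (chi-square over its degrees of freedom 9.15 to 66.6), and each counted as 1 replicate.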

Additional observations from a re-analysis of the deposited data

Results flagged for a closer look

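Oas1b in WT 4, at 3.75 in log2 CPM, stood apart from the other WT libraries: its gap to the next library was 0.693 of the WT range, past Dixon's critical value for 6 samples. It was the only flag among 26 groups of libraries searched, and chance flags about 1 in 20. WT 4 was also the highest WT library for the other 6 OAS genes.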

How the results depend on the processing

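All 7 OAS genes kept a log2 fold change below 0 in each of the 24 alternatives, while calls changed with the setting. OAS genes called were 2 with DESeq2, 5 with limma voom, 3 with the replicate block, and 0 with WT 4 to 6 alone (3 at an unadjusted p under 0.05) or WT 1 to 3 alone (2). They were 0 to 3 with a single library left out, 4 with a term for the 4 libraries lowest in neutrophil markers, and 0 without those 4. The last 2 settings were chosen after seeing the data. For the WT subsets the share of all tested genes at an unadjusted p under 0.05 is not given here. The WT subsets differ in summed liver transcripts, which were 2.71 to 12.4 CPM in WT 1 to WT 3 and 23.6 to 55.6 CPM in all other libraries. With WT 1 to 3 alone, 5 of 7 liver transcripts were called higher in AMKO, among 231 genes called in all. The cause of this difference was not tested. Oas1b was called in 15 alternatives, with its log2 fold change between -1.46 and -0.83 and an adjusted p of 0.00244 to 0.198. It was lost with WT 4 to 6 alone (0.0621), WT 1 to 3 alone (0.198), without the 4 libraries (0.183), with the replicate block, and without each of the 5 libraries named beside its values.

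Genes called over all, 794 in the text, were 1302 with DESeq2, 1664 with limma voom and 910 with the replicate block. They were 1066 with the neutrophil term, 98 without the 4 libraries, and 411 to 1140 with single libraries left out. With WT 4 to 6 and WT 1 to 3 alone they were 167 and 231. Pathway genes called, 19 in the text, were 34 with limma voom, 29 with the replicate block, 11 and 9 with the WT subsets, 29 with the neutrophil term, 3 without the 4 libraries, and 14 to 31 with single libraries left out. Passing pairs of OAS genes were 0 to 1 with single libraries left out. Fewer libraries enter these subsets, and the cause of the other shifts was not tested.

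The replicate numbers were not taken as pairing the libraries, since correlations of same-numbered deviations ran from -0.16 to 0.35 and most libraries did not correlate best with their own number. With the replicate block Oas1b had a log2 fold change of -1.15 and an adjusted p of 0.0529, and Oas2, Oasl1 and Oasl2 passed (0.0109, 0.0130 and 0.0215). Counting error limits genes with few counts, and Oas1b had 16 counts in 1 library.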
